A study of Gallus gallus with 65 samples.

Results

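The utricle is a balance organ of the inner ear, and its sensory epithelium is a sheet of mechanosensory hair cells set among supporting cells. In birds, supporting cells re-enter the cell cycle after hair cells die and give rise to new hair cells, and 48 hr of recovery was sampled because entry of supporting cells into S phase is high near that time. The arrays described here compare neomycin-treated and control utricle epithelia at 48 hr. They were chosen by their titles, and they make up 19 of the 65 arrays of the series, with 25 others at 0 hr and 21 at 24 hr.

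Per the study's methods, utricles of White Leghorn chicks (10 to 21 days after hatching) were cultured for 24 hr with 1 mM neomycin, an aminoglycoside antibiotic that kills hair cells, then rinsed and kept for 48 hr without it. Time-matched controls had the same culture and rinse and never received neomycin, so both groups share the culture, the serum and the wait. The epithelium was then lifted off the underlying stroma with the protease thermolysin. A biological sample pooled 4 treated and 4 control epithelia, and the 3 biological replicates are therefore pools, not single animals. RNA was amplified, labelled with Cy3 or Cy5 and hybridised to slides of 50-mer probes for human transcription factor genes, each spotted in duplicate. Every value is thus a signal of chick RNA on a human probe. Whether each probe reads a chick transcript of the named gene was not tested here.

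Each value below is a log2 ratio of neomycin over control, so that 0.26 stands for 1.2-fold. Replicate 1 had 5 arrays, replicate 2 had 8 and replicate 3 had 6. Of these 19 arrays, 10 carried neomycin RNA in Cy3 and 9 in Cy5, according to the image names in the file headers. The direction of every ratio was taken from those names. The deposited log2 ratios had the same orientation, and the sample descriptions read neomycin-treated versus control. Of the 1507 gene probes, 1281 were bright enough to test.

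Signals were weak. The median spot at 48 hr was 1.67 times its local background in the neomycin channel and 1.71 times in the control channel, and 83.0% of gene probes had a median brightness under 1000. Arrays of the same replicate and dye orientation correlated at a median r of 0.272 across probes, against -0.0503 for opposite orientations of the same replicate. Between the mean of each orientation, r was -0.334 in replicate 1, -0.131 in replicate 2 and 0.133 in replicate 3. Biological replicates correlated at 0.0341 (1 and 2), -0.0164 (1 and 3) and 0.198 (2 and 3). Arrays of different replicates had a median r of 0.0317. Opposite orientations of a replicate thus did not resemble each other. Replicates 1 and 3 were each quantified on 1 day and replicate 2 on 2 days, so the day and the biological replicate cannot be told apart, although every array holds treated and control RNA together.

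No probe passed the threshold at 48 hr. Limma called 0 of 1281 probes (0%) at an adjusted p under 0.05. Before adjustment 95 (7.42%) had p under 0.05, where 64.05 would be by chance. The methods' t-test, run on replicate values, also called 0, with 74 probes under 0.05 before adjustment. The smallest adjusted p was 0.597. The results that follow therefore describe the size and the agreement of ratios, and none is a called change. Both limits of the study's methods, 1.2-fold and an unadjusted p of 0.05, were passed in limma by 37 probes (2.89%), called here past both limits. Of these, 27 (2.11%) were higher after neomycin and 10 (0.781%) lower, or 10 higher and 27 lower if all signs are turned. This balance moved with the processing. Higher and lower probes numbered 30 and 4 under median centring, 18 and 2 with no background correction, 73 and 59 under plain subtraction of background, and 11 and 16 from the deposited ratios after centring. They numbered 54 and 31 from the arrays with neomycin in Cy3 alone, and 22 and 46 from those with neomycin in Cy5 alone.

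Agreement among replicates was weak. Over all tested probes, 202 (15.8%) lay above 0 in all 3 replicates and 163 (12.7%) lay below 0 in all 3. Unrelated replicates would also share a sign for part of the probes, so these counts alone do not show agreement. Among the 37 probes, 10 had a replicate of the opposite sign, and 27 dropped under 1.2-fold when their largest replicate was left out. The largest value came from replicate 1 in 19 of them, from replicate 2 in 5 and from replicate 3 in 13. Both orientations had the same sign for 34, as the plot of orientations shows. A single sign across replicates and orientations alike was kept by 24, of which 16 were higher and 8 lower. The 37 were selected for a large mean and a small p, which favours 1 sign, so these counts are no independent evidence of agreement.

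**Figure D1:**
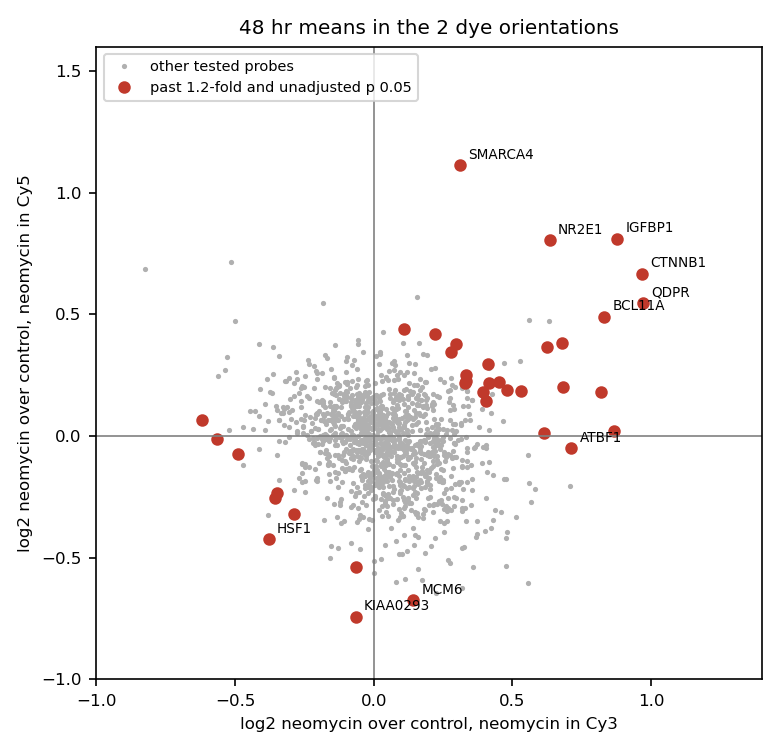
Mean log2 ratio of neomycin over control at 48 hr on arrays with neomycin in Cy3 (x axis) and in Cy5 (y axis), 1 point for each of the 1281 tested probes, with the 37 past 1.2-fold and an unadjusted p under 0.05 in red. Of the red points, 34 have 1 sign on both axes, while ATBF1 (0.71 and -0.05), MCM6 (0.14 and -0.67) and KIAA0540 (-0.62 and 0.07) have opposite signs.

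Among the largest ratios was that of CTNNB1, which encodes beta-catenin, the cell adhesion protein that also carries Wnt signals to the nucleus. CTNNB1 was at -0.12, 0.77 and 1.80 in replicates 1, 2 and 3. Replicates 2 and 3 were high and replicate 1 was not. The mean of 0.82 (SD 0.96, SE 0.24, n = 3) is 1.76-fold, with an unadjusted p of 0.00498 and an adjusted p of 0.597 in limma. Array by array, it was between -0.42 and 0.29 in replicate 1, between 0.25 and 1.41 in replicate 2 and between -0.40 and 3.17 in replicate 3. All 8 arrays of replicate 2 and 5 of 6 in replicate 3 were above 0, against 2 of 5 in replicate 1. The array of replicate 3 below 0 (neomycin in Cy5, array 2) is the one whose brightness pattern departed most from the other arrays, at r = 0.272 against a median of 0.743 over the 19. Both orientations gave a positive mean, 0.97 with neomycin in Cy3 and 0.67 in Cy5.

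IGFBP1, a secreted binding protein of insulin-like growth factors, had nearly the same profile. It was at -0.12, 0.83 and 1.83 in replicates 1, 2 and 3, with a mean of 0.84 (SD 0.97, n = 3), which was the highest of all tested probes. Over the 19 arrays, which come from only 3 RNA pairs, its ratio followed that of CTNNB1 at r = 0.938, the highest r of any probe with CTNNB1. Next in likeness were PSMC1, a proteasome ATPase (0.889), PTTG1IP (0.856) and HNF3B, the forkhead factor now called FOXA2 (0.821).

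QDPR, an enzyme that regenerates tetrahydrobiopterin, was also low in replicate 1 and high in the others, at -0.22, 1.26 and 1.24 (mean 0.76, SD 0.85, n = 3). SFRP4, a secreted Wnt antagonist, was at -0.05, 0.18 and 1.46, so that replicate 3 alone was high. When replicate 1 was left out, limma called CTNNB1 (1.28, adjusted p 0.00692), IGFBP1 (1.33, adjusted p 0.00692) and QDPR (1.25, adjusted p 0.0321), and no other probe. These calls rest on the spread of 8 replicates in all, and on 2 at 48 hr. Leaving out replicate 3 instead brought CTNNB1 to 0.33 and IGFBP1 to 0.35. Their probes are dim, with a median brightness over the series of 591 for CTNNB1, 587 for IGFBP1 and 557 for QDPR. In replicate 3 the CTNNB1 spots stood at 5.38 times local background in the neomycin channel and 2.24 times in the control channel, and in replicate 1 at 1.43 and 1.36 times.

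**Figure D2:**
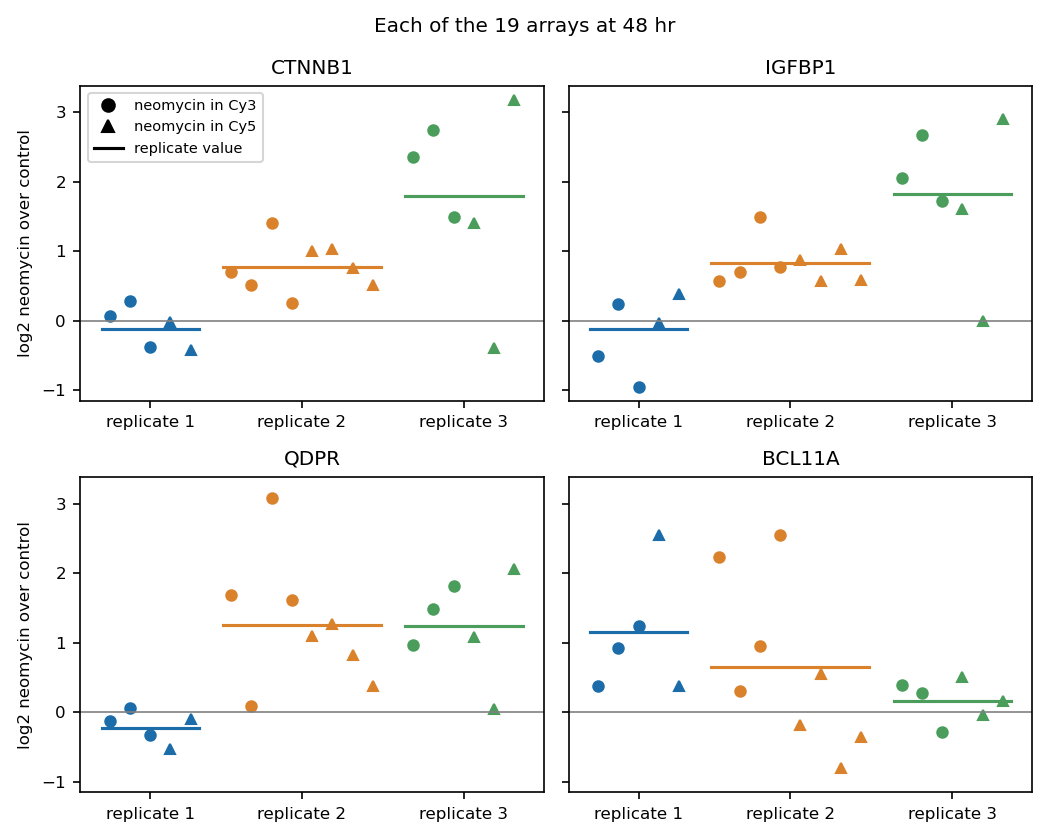
Log2 ratio of neomycin over control for CTNNB1, IGFBP1, QDPR and BCL11A on each of the 19 arrays at 48 hr, grouped and coloured by biological replicate, with circles for neomycin in Cy3, triangles for neomycin in Cy5 and a line at the replicate value. CTNNB1 and IGFBP1 sit near 0 in replicate 1 and highest in replicate 3, while BCL11A runs the other way, from 1.16 in replicate 1 to 0.17 in replicate 3.

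BCL11A encodes a zinc finger repressor best known for silencing fetal globin genes. Unlike CTNNB1 it was above 0 in every replicate, at 1.16, 0.66 and 0.17 (mean 0.66, SD 0.49, SE 0.18, n = 3, or 1.58-fold), with an unadjusted p of 0.00308 and an adjusted p of 0.597 in limma. All 5 arrays of replicate 1 were above 0, with 5 of 8 in replicate 2 and 4 of 6 in replicate 3. Its mean was 0.83 with neomycin in Cy3 and 0.49 in Cy5, and its brightness of 1454 was above that of most probes. Within replicate 2 the orientations parted, since 3 of the 4 arrays with neomycin in Cy5 were below 0.

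Several other large means came from 1 replicate. SMARCA4, the BRG1 ATPase of SWI/SNF chromatin remodelling complexes, was at 1.92, -0.05 and 0.27 (mean 0.71). Its spots in replicate 1 were 86.1 times local background in the neomycin channel and 13.8 times in the control channel, against 1.45 to 1.78 times in the other replicates. NR2E1, an orphan nuclear receptor of neural progenitors, was at 1.91, 0.37 and -0.11 (mean 0.72). LHX6, a LIM homeodomain factor of interneurons, was at 0.15, 0.19 and 1.16, and RNF14, a ubiquitin ligase, at 0.03, 0.18 and 1.28. For each of these the mean without its highest replicate was under 0.17, so the size of the ratio rests on 1 pool of epithelia.

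The probe with the smallest p had a smaller ratio. MLLT2, now called AFF1, is a scaffold of the complexes that release paused RNA polymerase II. It was at 0.46, 0.14 and 0.41 (mean 0.34, SD 0.17, SE 0.09, n = 3), above 0 on 16 of 19 arrays, at an unadjusted p of 0.00217 and an adjusted p of 0.597 in limma. ELL2, an elongation factor that joins the same complexes, was at 0.51, 0.19 and 0.29 (mean 0.33) and above 0 on 17 arrays. The replicates of both genes all lay above 0, but a single sign was part of how these genes were chosen. Of the 9 subunits or partners of these complexes on the array, a list drawn up after the values were seen, 8 were tested. Their median was 0.07, with 5 above 0 and 3 below. MLLT2 and ELL2 were past both limits, as were 2.89% of all tested probes, and MLLT1 was the lowest at -0.14. AF5Q31, now AFF4, a relative of MLLT2, had a mean of 0.36, but its replicates spread from 0.02 through 0.29 to 0.78. CDK9, the kinase of these complexes, was at -0.08.

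Genes of the Hedgehog pathway went both ways. Hedgehog ligands act through a membrane receptor to turn GLI zinc finger proteins from repressors into activators, and the pathway patterns the inner ear. GLI2, the main GLI activator, was at 0.46, 0.08 and 0.53 (mean 0.35, SD 0.24, n = 3, unadjusted p of 0.00228 in limma). It was above 0 on 13 of 19 arrays, and the 5 arrays of replicate 1 had a median of 0.04 and a highest value of 1.26. SHH, a ligand of the pathway, was at -0.21, -0.45 and -0.19 (mean -0.28, SD 0.15), below 0 in all replicates and on 15 of 19 arrays. Its ratio was -0.49 with neomycin in Cy3 and -0.08 in Cy5. GLI3 was at 0.09 and GLI was too dim to test. Of the 9 tested members of the GLI and ZIC list, 1 was past both limits in each direction, beside 2.11% higher and 0.781% lower of all tested probes. The median of the list was 0.03, beside 0.01 over all tested probes.

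Other probes of 1 sign in every replicate and orientation covered a range of roles. LBP-9, a CP2 family factor now called TFCP2L1, was at 0.34, 0.36 and 0.23, and TCIRG1, a subunit of the vacuolar proton pump, at 0.29, 0.29 and 0.30, with the narrowest spread of the set (SD 0.01). Single arrays of TCIRG1 nevertheless ranged from -0.29 to 0.93. RBM12, an RNA-binding protein, was at 0.41, 0.19 and 0.37. KIAA1528, which the study lists as DTX2, a homolog of Drosophila Deltex, had values between 0.24 and 0.31, with 0.40 in the Cy3 orientation and 0.14 in Cy5. SSX4, a cancer-testis antigen, was between 0.16 and 0.37. ELK3, an ETS factor that works with serum response factor, was at 0.34, 0.47 and 0.14, but its ratio was 0.61 with neomycin in Cy3 and 0.01 in Cy5, and in replicate 3 its spots were under local background. By that choice the replicates of these 6 genes did not cross 0. The means of 0.27 to 0.32 correspond to 1.21 to 1.25-fold.

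**Figure D3:**
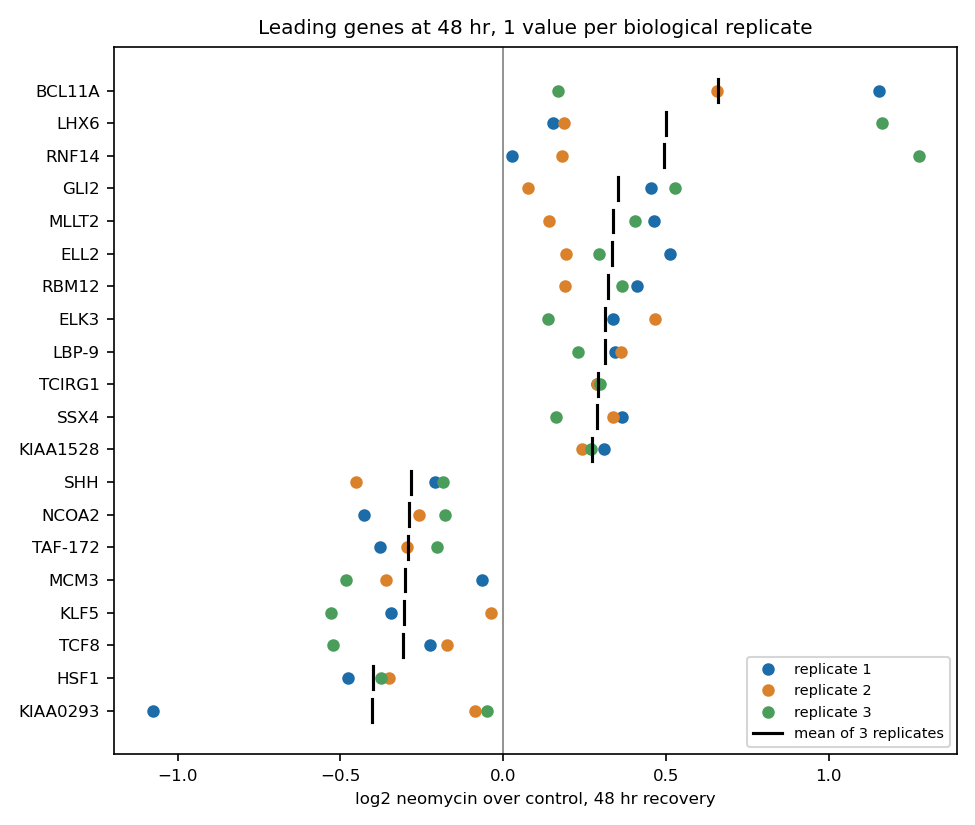
Log2 ratio of neomycin over control at 48 hr in each of 3 biological replicates (coloured points) and their mean (black bar) for 12 genes with higher and 8 with lower ratios, taken by p among those past 1.2-fold and an unadjusted p under 0.05 and of 1 sign across replicates and orientations. TCIRG1, KIAA1528 and HSF1 have tight replicates, whereas LHX6, RNF14 and KIAA0293 are spread by 1 replicate and BCL11A is spread evenly from 0.17 to 1.16.

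On the lower side, HSF1 was the steadiest. It encodes the master regulator of the heat shock response, the set of chaperones made under protein damage. HSF1 was at -0.48, -0.35 and -0.37 (mean -0.40, SD 0.07, SE 0.16, n = 3, unadjusted p of 0.0303 in limma), with -0.38 and -0.42 in the orientations and 16 of 19 arrays below 0. All replicates lay within a narrow band, although single arrays of replicates 1 and 3 ranged from -1.62 to 1.26. The other heat shock factors on the array were closer to 0, with HSF2 at -0.07 and HSF4 too dim to test. HIF1A, the oxygen-sensing factor grouped with them, was at 0.18, with 0.58 in the Cy3 orientation and -0.22 in Cy5.

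Probes for the replicative helicase were also among the lower ones. The MCM proteins form the ring that unwinds DNA in S phase. MCM3 was at -0.06, -0.36 and -0.48 (mean -0.30, SD 0.22, unadjusted p of 0.00853 in limma) and MCM6 at -0.28, -0.04 and -0.48 (mean -0.27, SD 0.22). Each was below 0 in all replicates, but MCM3 was at -0.07 with neomycin in Cy3 and -0.54 in Cy5, and MCM6 at 0.14 and -0.67. In replicate 3, which gave the lowest value of both, spots were near or under local background, at 1.05 (neomycin) and 1.4 times (control) for MCM3 and 0.899 and 0.88 times for MCM6. MCM4 was at -0.16 and MCM7 at -0.11, and MCM5 was too dim to test. All 4 tested MCM probes, a list drawn up after the values were seen, had negative means. MCM3 and MCM6 were past both limits on the lower side, as were 0.781% of all tested probes. MCM3 alone was below 0 in both orientations, since MCM4 was at -0.56 and 0.25 and MCM7 at 0.11 and -0.33. Among genes of E2F, RB and the cell cycle, 24 tested members had a median of 0.03 and none was past both limits. FOXM1, a driver of mitotic genes, was the highest at 0.17 and CCNC, cyclin C, the lowest at -0.24 (-0.33, 0.15 and -0.53). CCNC was at 0.11 with neomycin in Cy3 and -0.59 in Cy5.

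Among the remaining lower probes, TCF8, now called ZEB1, represses epithelial genes such as E-cadherin and was at -0.23, -0.17 and -0.52 (mean -0.31). KLF5, a factor of proliferating epithelia, was at -0.34, -0.04 and -0.53 (mean -0.30). TAF-172, an ATPase that removes the TATA-binding protein from DNA, was at -0.38, -0.30 and -0.20 (mean -0.29). NCOA2, a coactivator of nuclear receptors, was at -0.43, -0.26 and -0.18, but its ratio of -0.57 with neomycin in Cy3 was -0.01 in Cy5. Its spots were at 0.978 times local background in the neomycin channel and 1.12 times in the control channel, so the probe was not well above background. KIAA0293 was at -1.08, -0.09 and -0.05, so that its mean of -0.40 rests on replicate 1. Within replicate 1, a single array (neomycin in Cy5, array 2) was at -3.71 and the others were between -0.57 and 0.18. Without replicate 1 the mean of KIAA0293 was -0.07.

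By family, the ratios stayed near 0. Of 34 lists of related genes, 18 had a median above 0 and 16 below, between -0.13 and 0.06, and 7 kept the same sign of their median in all 3 replicates. Only 9 of the 34 had medians of the same sign in both orientations, so the sign of most family medians depended on the dye. In 12 lists at least 1 member was past both limits. Counts of such members, here and below, stand beside 2.89% of all tested probes (2.11% higher and 0.781% lower). With 2 lists as exceptions, medians were within 0.1 of 0. These were the CEBP factors of differentiation and inflammation, at -0.13 with all 4 tested members below 0, and the GATA factors, at -0.12 with 5 of 7 below 0. The CEBP replicate medians were 0.08, -0.31 and -0.27, and those of GATA 0.11, -0.10 and -0.07, so replicate 1 lay on the other side of 0 in both. CEBPG was at 0.47, -0.71 and -0.74, and GATA4 at 0.11, -0.64 and -0.53. No member of either list was past both limits.

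**Figure D4:**
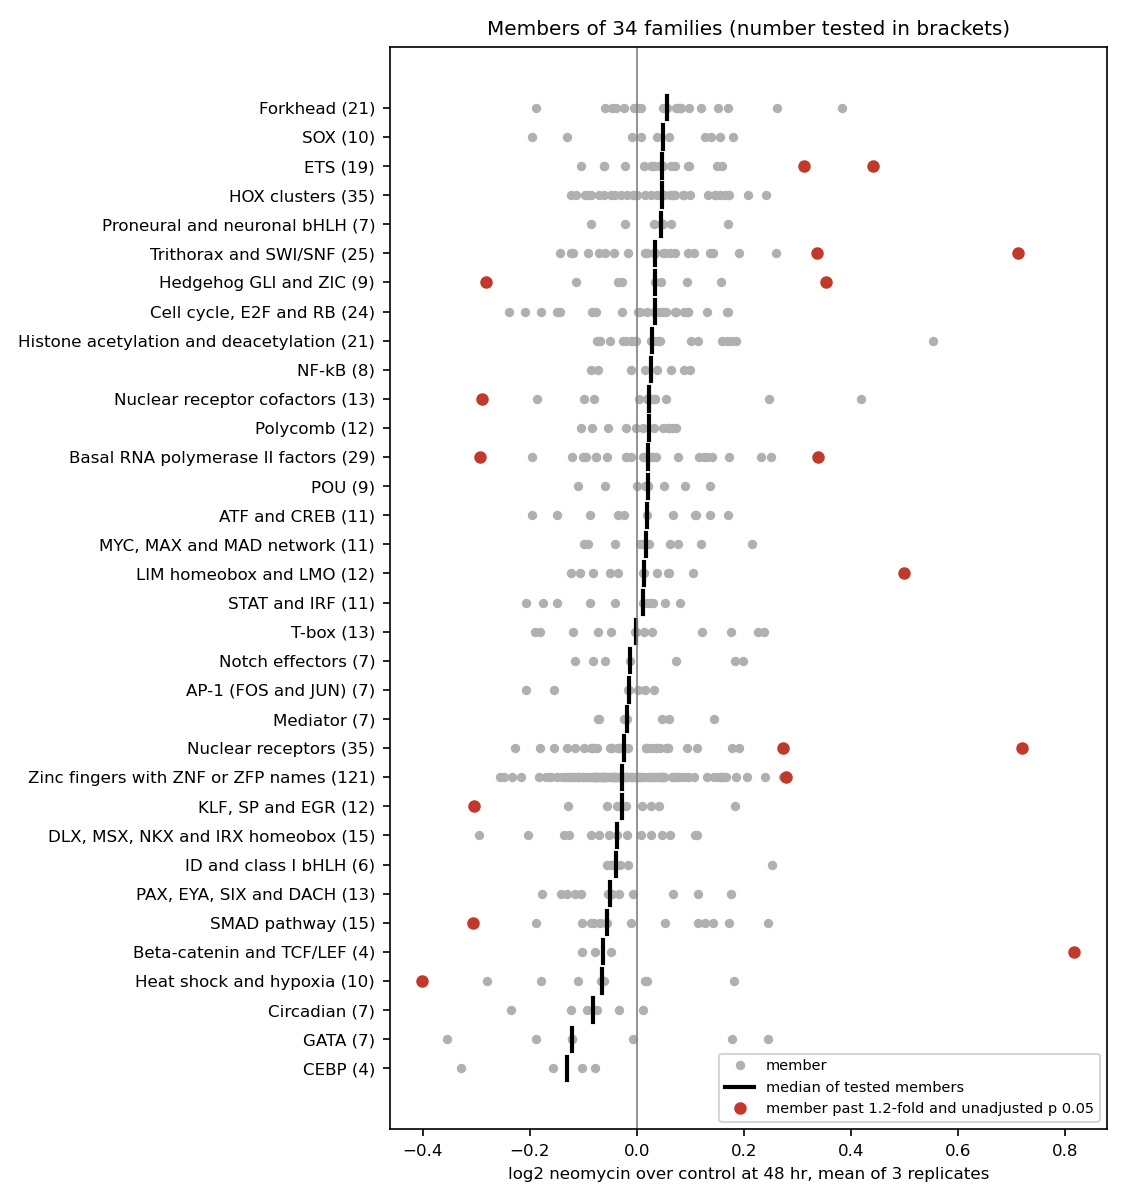
Mean log2 ratio of neomycin over control at 48 hr for each tested member (grey points) of 34 gene families, with the median as a black bar, members past 1.2-fold and an unadjusted p under 0.05 in red, and the number tested in brackets. Family medians lie between -0.13 and 0.06, and each of the 12 families with red points holds 1 or 2 of them.

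Among partners of beta-catenin, the ratio of CTNNB1 stood alone. LEF1, the DNA-binding partner of beta-catenin, was at -0.10, TCF7L2, another, at -0.05 and the corepressor TLE4 at -0.08, and TCF7 was too dim to test. Notch effectors, which keep supporting cells from becoming hair cells, had a median of -0.01 over 7 tested members with none past both limits. HES7 was the highest at 0.20 (0.28, 0.34 and -0.02), followed by HEY1 at 0.18 (0.30, 0.26 and -0.01), both near 0 in replicate 3. HEY1 was at 0.56 with neomycin in Cy3 and -0.19 in Cy5. FHL1, a LIM protein that binds the Notch partner RBPJ, was the lowest at -0.11. HRY, the array's name for HES1, was at -0.01. KIAA1528, the Deltex homolog DTX2, was not in this list and was past both limits on the higher side. Proneural bHLH genes had a median of 0.04, with NEUROG1 at 0.12, 0.06 and 0.34 (mean 0.17, orientations 0.37 and -0.03), and ATOH1, the factor that specifies hair cells, at -0.02.

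Factors of the SMAD pathway, which transduce TGF-beta and BMP signals, had a median of -0.05 over 15 tested members. The highest was MADH2, now SMAD2, at 0.26, 0.05 and 0.42 (mean 0.25), and besides TCF8 the lowest was FOXH1, a SMAD2 partner, at -0.20, -0.27 and -0.10 (mean -0.19). Immediate early AP-1 genes were at a median of -0.01 over 7 members, and JUNB was the lowest at -0.21 (-0.07, -0.29 and -0.26), with 0.18 and -0.59 in the orientations. NF-kB genes had a median of 0.03 over 8 members, all within 0.11 of 0. STAT and IRF genes, which carry cytokine and interferon signals, had a median of 0.01 over 11 tested members, with none past both limits.

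Medians of developmental homeobox and related families were similarly near 0. The 35 tested HOX genes had a median of 0.05 with none past both limits, and HOXB8 was at 0.26, 0.16 and 0.20. The HOX median was 0.21 with neomycin in Cy3 and -0.06 in Cy5. Forkhead genes had the highest family median, 0.06 over 21 members, with 0.19 in the Cy3 orientation and -0.04 in Cy5. Their highest member, HNF3B, was at 0.12, 0.09 and 0.94, so that replicate 3 alone was high. SOX genes had a median of 0.05 over 10 members. SOX11, SOX13 and SOX4 were at 0.18, 0.16 and 0.13, and SOX2, the supporting cell and progenitor factor, was at 0.15, -0.22 and -0.31 (mean -0.13). T-box genes had a median of -0.00 over 13 members, but TBX15 and TBX5 were above 0 in every replicate, at 0.23, 0.28 and 0.20 and at 0.15, 0.23 and 0.30. In all, 3 T-box members were above 0 in every replicate, beside 15.8% of all tested probes, and 4 below, beside 12.7%. An unadjusted p under 0.05 in limma was found for 4, beside 7.42% of all tested probes, and none was past both limits. Among those below, TBX19 was at -0.09, -0.09 and -0.39, but at 0.10 with neomycin in Cy3 and -0.48 in Cy5. TBX19 spots were at 1.06 times local background after neomycin and 0.996 times in controls. PAX, EYA, DACH and sine oculis homeobox genes, which build the early ear, had a median of -0.05 over 13 members and a highest value of 0.18 for PAX2 (0.14, 0.08 and 0.31).

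In the general transcription machinery, 29 tested RNA polymerase II factors had a median of 0.02. GTF2A1, a subunit of TFIIA, was at 0.61, 0.02 and 0.38 (mean 0.34) and past both limits, as was TAF-172 on the lower side. GTF2A1 spots were at 1.77 times local background after neomycin and 0.994 times in controls. Among 11 tested RNA polymerase III factors, a list drawn up after the values were seen, the median was -0.01 and GTF3A, which encodes TFIIIA, was past both limits at 0.68, 0.48 and -0.08 (mean 0.36). GTF3C1 and GTF3C3, subunits of TFIIIC, were above 0 in every replicate with means of 0.24 and 0.26, and GTF3C1 was at 0.56 with neomycin in Cy3 and -0.08 in Cy5. Nuclear receptors had a median of -0.02 over 35 members, with NR2E1 and ESRRG (0.48, -0.00 and 0.34) past both limits, beside 2.89% of all tested probes. ESRRG spots were at 1.07 times background after neomycin and 0.849 times in controls. ETS genes had a median of 0.05 over 19 members (0.12 in the Cy3 orientation and -0.02 in Cy5). Of the 19, 15 were above 0, beside 52.8% of all tested probes. ELF3, an ETS factor of epithelia, was at 1.00, 0.29 and 0.03 (mean 0.44), with 0.87 in the Cy3 orientation and 0.02 in Cy5. The 121 zinc finger genes with ZNF or ZFP names had a median of -0.03, and 1 of them, ZNF205 (0.70, 0.18 and -0.04), was past both limits.

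Histone acetylation and deacetylation genes had a median of 0.03 over 21 tested members, with none past both limits. Among cofactors, PPARGC1, a coactivator of mitochondrial genes, was at -0.22, 0.20 and 1.28, and ID1, an inhibitor of bHLH factors that is induced by BMP signals, was at -0.19, -0.03 and 0.98. Both were high in replicate 3 alone, the replicate in which CTNNB1 was highest. MAX, the partner of MYC, was at 0.04, 0.42 and 0.18 (SD 0.19), and GATA6 at 0.47, 0.07 and 0.20 (SD 0.20). Their replicates spread less than those of PPARGC1 and ID1, but more than the median SD of 0.129 over tested probes. MAX and GATA6 each had an unadjusted p under 0.05 in limma and neither reached 1.2-fold. GATA6 spots were at 1.29 times local background after neomycin and 0.976 times in controls.

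Genes that the study lists or discusses for the neomycin course of the utricle, some of them for other times or across treatments, were matched to 17 probes, and all were tested. The list was drawn partly from these samples and is no independent evidence of direction. At 48 hr 4 had an unadjusted p under 0.05 in limma, beside 7.42% of all tested probes. Of these 4, 2 were past both limits, CTNNB1 and BCL11A, beside 2.89% of all tested probes. The other 2 were TBX15 and ZNF93, a zinc finger gene at 0.41, 0.04 and 0.27. Of the 17, 10 were above 0, with a median of 0.03, and the lowest was ZNF44 at 0.26, -0.67 and -0.29 (mean -0.23). At 48 hr in the utricle the study lists some of the 17 as higher, such as CTNNB1 and BCL11A. It lists others as lower, such as NR1H3, FHL1 and ZNF44. The pooled count and median therefore do not measure agreement with the study. Separately from the arrays, the study reports qPCR on new biological samples. By qPCR, CTNNB1, BCL11A, KIAA0173, TRIP15 and CUTL1 were higher in the treated utricle at this time. Mean array ratios here, in the same order, were 0.82, 0.66, -0.01, 0.02 and 0.13. The qPCR data were not analysed here.

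Markers of the cell types that the dissected sheet could hold were near the background of the slide. In the neomycin channel, the hair cell probes for ATOH1, BARHL1, GFI1 and POU4F3 stood at 1.89, 1.82, 1.54 and 1.59 times local background, and in the control channel at 1.97, 2.20, 1.45 and 1.49 times. These levels are close to that of the median spot, so the presence of hair cells cannot be read from them. GFI1 and POU4F3 were too dim to test. ATOH1 was at -0.03, -0.03 and -0.00 and BARHL1 at 0.22, 0.09 and -0.29, so neither separated from 0. Supporting cell and otic markers were little brighter, with GATA3 at 2.56 and SOX2 at 2.11 times background after neomycin and a median ratio of -0.06 over 4 tested of 7. In bulk tissue, fewer cells of a type and less RNA per cell cannot be told apart. Mesenchymal markers had a median ratio of -0.01 (6 tested of 8, spots at 1.26 to 2.01 times background after neomycin and 1.46 to 2.32 times in controls), with TBX15 the only member at an unadjusted p under 0.05. Neuronal markers had a median of 0.05 (5 of 5), and blood and immune markers of 0.09 (7 of 9), with GATA1 at 0.32, -0.10 and 0.32 (orientations 0.41 and -0.05). Melanocyte and glial markers had a median of 0.02 (2 of 3). None of the marker lists had a member past both limits, and their part in the ratios of other genes was not tested.

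Whether the ratios at 48 hr differ from those at 0 and 24 hr was tested in the same fit. Limma called 0 probes for 48 against 0 hr, with 35 under 0.05 before adjustment, and 0 for 48 against 24 hr, with 46. The methods' t-test, run on replicate values, gave 0 for both, with 43 and 37 under 0.05 before adjustment. Both limits were passed by 28 probes (2.19%) and 37 probes (2.89%), and the smallest adjusted p were 0.998 and 0.999. Of the 37 probes past both limits at 48 hr itself, 7 were past them with the same sign at 0 hr and 5 at 24 hr. TCF8 and WHSC1, a histone methyltransferase, were past them at all 3 times. The ratio was larger in size at 48 hr than at both earlier times for 32 of the 37, which were chosen for their size at 48 hr.

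In the earlier samples the ratio of CTNNB1 ran from -0.35 to 0.02 (0 hr) and from -0.15 to 0.07 (24 hr), so its replicate 1 at 48 hr (-0.12) lay among the earlier values and the other replicates above all of them. The difference was 0.97 (SE 0.34) from 0 hr and 0.89 (SE 0.34) from 24 hr, with unadjusted p of 0.0141 and 0.0222 in limma. Without 48 hr replicate 1 the difference from 0 hr was called for CTNNB1 (1.43, adjusted p 0.0285) and for IGFBP1 (1.46, adjusted p 0.0285). BCL11A, in contrast, already had a mean of 0.45 (SD 0.47) directly after treatment and of 0.38 (SD 0.22) after 24 hr, and its replicates overlapped across times. GLI2 had earlier means of 0.04 and 0.03, and its lowest replicate at 48 hr (0.08) overlapped the earlier ones.

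The smallest p for 48 against 0 hr belonged to GTF2E2, a TFIIE subunit, whose replicates were -0.42, -0.48 and -0.41 directly after treatment, then 0.43, 0.05 and -0.13 by 48 hr. The replicates of these times did not overlap, with a difference of 0.55 (SE 0.13, unadjusted p of 0.0012 in limma). The orientations of GTF2E2 at 48 hr had opposite signs, 0.35 with neomycin in Cy3 and -0.12 in Cy5. ZNF288 was at -0.27 at 0 hr, and at 0.11, 0.14 and 0.21 at 48 hr, again without overlap (difference 0.42, SE 0.11). HOXA13 had a difference of 0.34 (SE 0.10), with orientations of 0.31 and -0.19 at 48 hr. For 48 against 24 hr the leading probes included ZFX and TRIM. ZFX was at 0.08, 0.41 and 0.37 after 24 hr against -0.07, -0.17 and -0.17, without overlap, with a difference of -0.43 (SE 0.11). Its 48 hr mean was -0.32 with neomycin in Cy3 and 0.05 in Cy5. TRIM was at -0.33, -0.65 and -0.59 after 24 hr against -0.19, -0.00 and -0.17, again without overlap (difference 0.40, SE 0.12), but its 48 hr orientations were 0.27 and -0.51. GTF2E2, ZNF288, ZFX and TRIM were taken for the small p of these same differences, which favours replicates without overlap. Their lack of overlap is therefore no independent evidence of a change. SHH was at 0.07 at 24 hr (difference -0.36, SE 0.15), and HSF1 was at -0.04 at 0 hr and -0.39 at 24 hr, with replicates at 24 hr from -1.04 to 0.13.

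**Figure D5:**
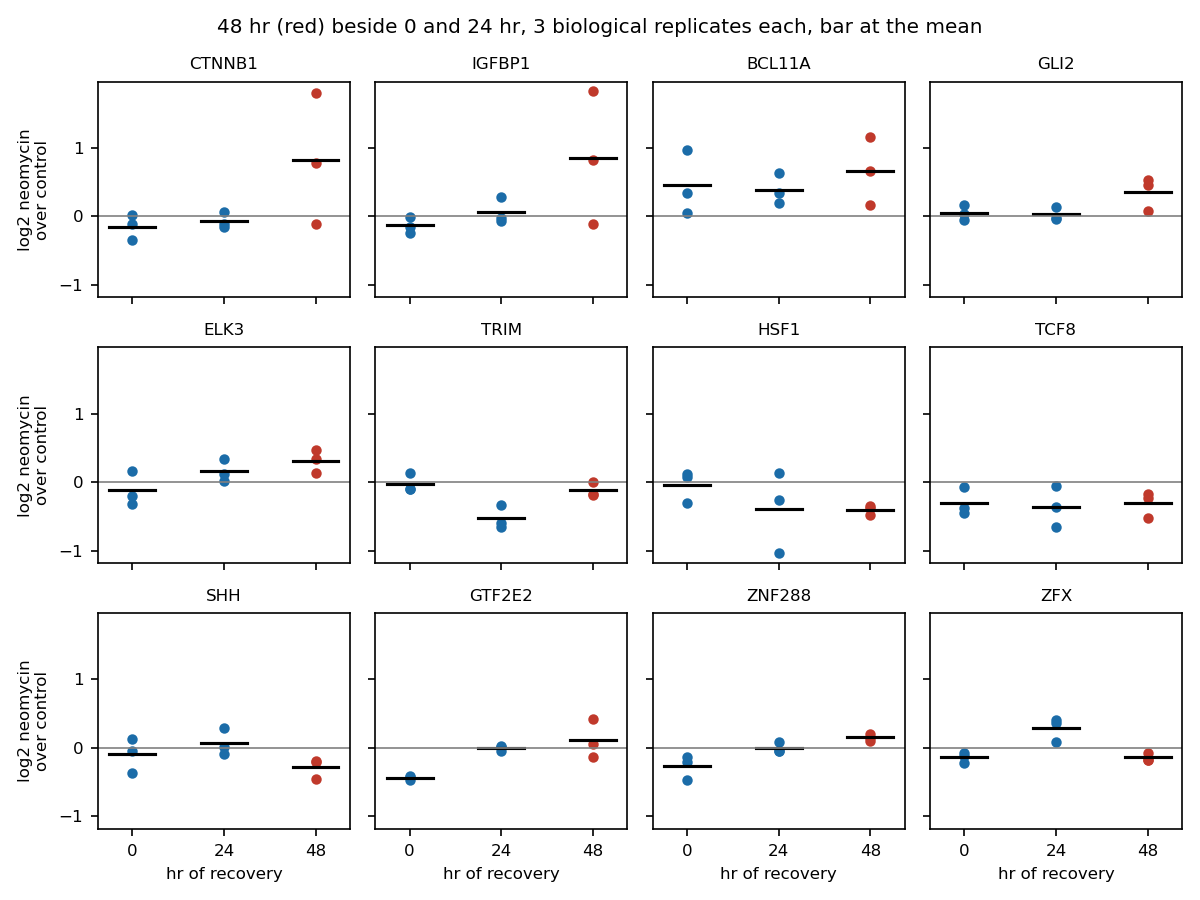
Log2 ratio of neomycin over control in 3 biological replicates at 0, 24 and 48 hr of recovery for 12 genes, with 48 hr in red and a bar at each mean. CTNNB1 and IGFBP1 have a pair of 48 hr replicates above all earlier ones, ZFX has all 48 hr replicates below those of 24 hr, and TCF8 is below 0 at each time.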

How the data were processed

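The authors deposited 1 ImaGene quantification file per array and dye, with the intensity of each spot and its local background, not normalized (ImaGene 4.1 per the file headers). They also deposited a table of log2 ratios, which equalled the log2 ratio of foreground intensities turned to neomycin over control, without background correction or centring (array medians from -2.03 to 1.81).

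Intensities were corrected by normexp (offset 50) and normalized within arrays by loess in limma 3.58.1 under R 4.3.3, with spots of no gene at weight 0. Ratios were turned to neomycin over control by the image names in the headers, which matched the title digit on 65 of 65 arrays. Duplicate spots were averaged, then arrays of each orientation, then both orientations, so arrays counted as technical and n = 3 pools of epithelia. A brightness minimum of 1000 would have removed 83.0% of gene probes, so the dimmest 15% were removed instead. The 9 replicate values of the series were fitted with 1 coefficient per time point, and p-values (two-sided) were adjusted by Benjamini-Hochberg over 1281 probes. The fit was checked on simulated data. The precision of a replicate value is limited by the number of arrays and by signals near background.

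Genes were named by a rule: up to 12 higher and 8 lower by p, past 1.2-fold and an unadjusted p of 0.05 and of 1 sign across replicates and orientations, with the extremes of each family, genes named by the study, cell type markers and the leading probes of each difference between times. Genes outside this rule, such as IGFBP1, QDPR, SFRP4, MCM4 and MCM7, were chosen after their values were seen. Members and lists were chosen with earlier results of these data known. Alternatives covered background, normalization, filters, orientations, replicates and models. Probe names are those of the array's design, and 817 of 1507 equal a chicken RefSeq symbol or synonym. Probe sequences were not used here. Some probes that the rule would name are not reported here.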

Additional observations from a re-analysis of the deposited data

How the results depend on the processing

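No gene of the 20 ranked by p changed sign under any alternative. These genes were chosen for 1 sign across replicates and orientations, so leaving out a 48 hr replicate or orientation could not turn it. At 48 hr the 37 probes past both limits became 132 under plain subtraction of background, 20 when no background was corrected, 59 with scale normalization, 10 of 256 with probes of brightness 1000 or more, 85 with neomycin in Cy3 only, 68 with neomycin in Cy5 only, 57 without array 2 of the Cy5 orientation of replicate 3, 56 with day of quantification as random block and a dye term, and 8 by the methods' t-test run on replicate values. Leaving out 1 replicate at 48 hr gave 41 to 76, and 0 to 3 called probes. Called probes at 48 hr were 5 (CTNNB1, IGFBP1, QDPR, BCL11A and SFRP4) with all arrays taken as independent and 5 with the day as a block. For 48 against 0 hr they were 4 in each of these, 3 by the methods' t-test over hybridisations and 0 to 2 on leaving out a replicate. For 48 against 24 hr they were 2 in both array models and 0 whichever replicate was left out. The array models treat technical arrays as samples. One array of replicate 1 is marked as poor in its image name, and leaving it out, an alternative added after seeing the data, gave 46 past both limits and 0 called.

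Replicate numbers are shared by the time points, and 2 of 9 same-numbered pairs deviated together at r above 0.1. Opposite orientations of the same replicate had a median r of -0.0503, so this low count cannot show whether same-numbered samples are related. With the replicate number as a replicate block, 42 probes were past both limits and 0 were called in each of the 3 tests. Signals near background, few pools and the weak agreement of orientations limit what can be detected here.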
